A study of Mus musculus with 40 samples.

Results

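The extracellular matrix genes analysed here are 42 genes that encode collagens, laminins, nidogens, matrix glycoproteins and proteoglycans. They were measured in neural stem cells that lack Id3, with and without deletion of Id1 and Id2. Their probes on a mouse bead array were taken by the gene symbol of the array's annotation and kept where the scanner's detection p was under 0.01 on at least 3 of the 40 arrays. This left 54 probes of 32 genes, among 21740 probes tested in all. Of the other members, Col1a1, Col1a2, Col3a1, Acan, Dcn, Lama4 and Thbs1 had probes that did not pass, each with at most 1 array under that detection p, and Col6a3, Fbn1 and Spp1 are not analysed here. The tested genes were 14 of 15 basement membrane genes, 7 of 10 glycoproteins, 4 of 5 fibril-associated and microfibril collagens, 4 of 6 proteoglycans and 3 of 6 fibril collagens. Just inside the limit were Col11a1, Bgn and second probes of Col6a2 and Col9a1, each detected on 5 arrays, and just outside it were further probes of Col18a1, Col11a1 and Fn1, each detected on 2. The second probe of Col9a1 passed through 4-OHT arrays only, so it had to differ and supports nothing here.

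The extracellular matrix is the secreted scaffold around cells. Laminin trimers and type IV collagen form the 2 networks of a basement membrane, which nidogens and the heparan sulfate proteoglycans perlecan (Hspg2) and agrin (Agrn) join, and neural stem cells of the germinal zones contact laminin through integrins. The matrix of the brain parenchyma holds little fibrillar collagen and is rich in hyaluronan, the chondroitin sulfate proteoglycans of the lectican family (Bcan, Ncan, Vcan, Acan) and tenascins, which bind to each other. Id proteins are helix-loop-helix proteins without a DNA-binding region that pair with E proteins and keep them from the E box letters CANNTG.

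The cells were primary neural stem cells of E13.5 telencephalon that came from 129/Svj;C57Bl/6 hybrid mice and carried floxed alleles of Id1 and Id2 (Id1L/L and Id2L/L), null alleles of Id3 (Id3-/-) and the Rosa-Cre-ER allele. They grew on laminin with 20 ng/ml each of FGF-2 and EGF. They received 250 nM 4-OHT (4-hydroxytamoxifen), which releases the recombinase and deletes the floxed Id1 and Id2, or ethanol as the vehicle, and were taken after 6, 12, 18, 24, 48, 96 and 144 h. Each agent had 3 arrays at each time (replicates A, B and C) and 2 at 144 h (A and C). The vehicle cells thus lack Id3 and carry the recombinase too, no culture without the recombinase was given 4-OHT, and the ROSA26 allele acts in every cell type of the culture. The labels call the replicates triplicate samples without saying that they were separate cultures, so the spread behind each p-value may be technical.

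Each array detected between 15884 and 19186 probes, apart from vehicle replicate C at 6 h with 12947. Array numbers in the labels fall into 3 ranges, which hold replicates A and B of 18 to 144 h, replicate C of those times, and all of 6 and 12 h; the labels do not call them batches. Several members differed by range more than by agent, so values are given array by array in the order A, B, C, and levels at 6 and 12 h are not set against later ones. Id2 was lower in 4-OHT cells at 18 h and later, with differences on the log2 scale of -2.01 at 18 h and -4.94 at 96 h (adjusted p = 1.02e-05 and 3.74e-16). Id1 averaged 4.29 in 4-OHT cells, where no array detected it, against 9.08 in vehicle cells at 96 h. Id4, for which no altered allele is given, was higher in 4-OHT cells at 96 h (difference 3.32, limma adjusted p = 2.54e-11). Neural stem cell markers Nes, Sox2, Vim, Sox9, Fabp7, Hes1 and Notch1 were detected on all 40 arrays. Of the same list Hes5 was detected on 31 arrays, Prom1 on 15, Pax6 on 5 and Msi1 on 0.

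The 250 bases before the start of 4 of the genes described below are printed here. Lamb2 and Lama5 were the laminins called lower in 4-OHT than in vehicle cells, and Tnr and Tnc the tenascins called higher. Capitals mark CANNTG, which reads alike on both strands, and the sequences are RefSeq's for build GRCm38.p6, written 5′ to 3′ on the gene's strand. They lie at chr9:108479612-108479861 (+ strand, Lamb2), chr2:180225860-180226109 (- strand, Lama5), chr1:159523519-159523768 (+ strand, Tnr) and chr4:64047016-64047265 (- strand, Tnc).
Lamb2: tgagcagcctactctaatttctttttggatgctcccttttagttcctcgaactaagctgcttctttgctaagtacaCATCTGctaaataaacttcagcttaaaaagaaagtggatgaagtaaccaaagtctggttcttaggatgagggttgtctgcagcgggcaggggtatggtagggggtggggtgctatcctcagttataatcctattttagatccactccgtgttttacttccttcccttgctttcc
Lama5: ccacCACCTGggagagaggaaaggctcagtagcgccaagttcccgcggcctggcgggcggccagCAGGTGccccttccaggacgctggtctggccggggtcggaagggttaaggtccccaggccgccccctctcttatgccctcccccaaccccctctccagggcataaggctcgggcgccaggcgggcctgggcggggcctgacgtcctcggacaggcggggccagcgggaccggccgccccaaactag
Tnr: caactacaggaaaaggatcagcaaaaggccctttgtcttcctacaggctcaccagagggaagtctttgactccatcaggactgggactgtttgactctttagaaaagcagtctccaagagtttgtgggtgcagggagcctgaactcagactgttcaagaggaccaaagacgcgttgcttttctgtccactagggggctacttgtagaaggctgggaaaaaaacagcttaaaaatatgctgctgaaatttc
Tnc: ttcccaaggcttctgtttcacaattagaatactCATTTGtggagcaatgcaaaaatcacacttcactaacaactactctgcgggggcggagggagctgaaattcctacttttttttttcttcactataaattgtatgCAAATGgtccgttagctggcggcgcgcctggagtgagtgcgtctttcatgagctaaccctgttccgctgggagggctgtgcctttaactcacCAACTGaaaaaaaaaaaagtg
Of the 10 members with a probe called at 96 h, 9 had such a window, 12 windows in all. CANNTG was in 6 of the 12 windows, which belong to Lamb2, Lama5, Col4a5, Tnc and Col9a1, against 66.2% of all 32851 windows of the same length. Of its special cases, CAGCTG was in 0 of the 12 windows, against 13.0% of all, and CAGGTG, searched on both strands, was in 1, against 17.2% of all. These are descriptions of letters and not of binding.

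Levels are log2 values after background correction and quantile normalization, a difference is the mean of the 4-OHT arrays minus the mean of the vehicle arrays, and a gene was called where the limma test gave a Benjamini-Hochberg adjusted p under 0.05 over all 21740 probes. Each gene is represented by its tested probe with the highest mean level. In comparisons between the agents, rose and fell mean higher and lower in 4-OHT than in vehicle cells at that time, not a change over time. No matrix gene was called at 6, 12, 18 or 24 h, where 0%, 0%, 0.0736% and 0.248% of all probes were called; unadjusted p was under 0.05 for 0, 1, 3 and 7 of the 32 genes, against 6.82%, 5.08%, 2.95% and 3.79% of all probes. At 48 h 3 genes were called, all higher in 4-OHT cells, where 0.952% of all probes were called and 0.649% were called higher. At 96 h 4 genes rose and 5 fell, against 4.5% of all probes called, 2.41% higher and 2.1% lower. At 144 h again 4 rose and 5 fell, against 6.61% of all probes, 3.41% higher and 3.2% lower. By probes this was 5 of 54 at 48 h (9.26%), 15 at 96 h (27.8%) and 14 at 144 h (25.9%). Probes of the same gene are not independent. The members were chosen with earlier results of these data known, so these shares are descriptions and not a test against all probes. The genes called at 96 and 144 h shared 7 genes, 77.8% of each list and all in the same direction. Over all probes 668 were shared, 68.2% of the 96 h calls and 46.5% of the 144 h calls. The 2 times have no array in common, but the fit gives each probe 1 estimate of spread for both, so the lists are not independent. Over the whole time course the F test of the 7 differences called 11 of the 32 genes, against 6.05% of all probes.

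**Figure D1:**
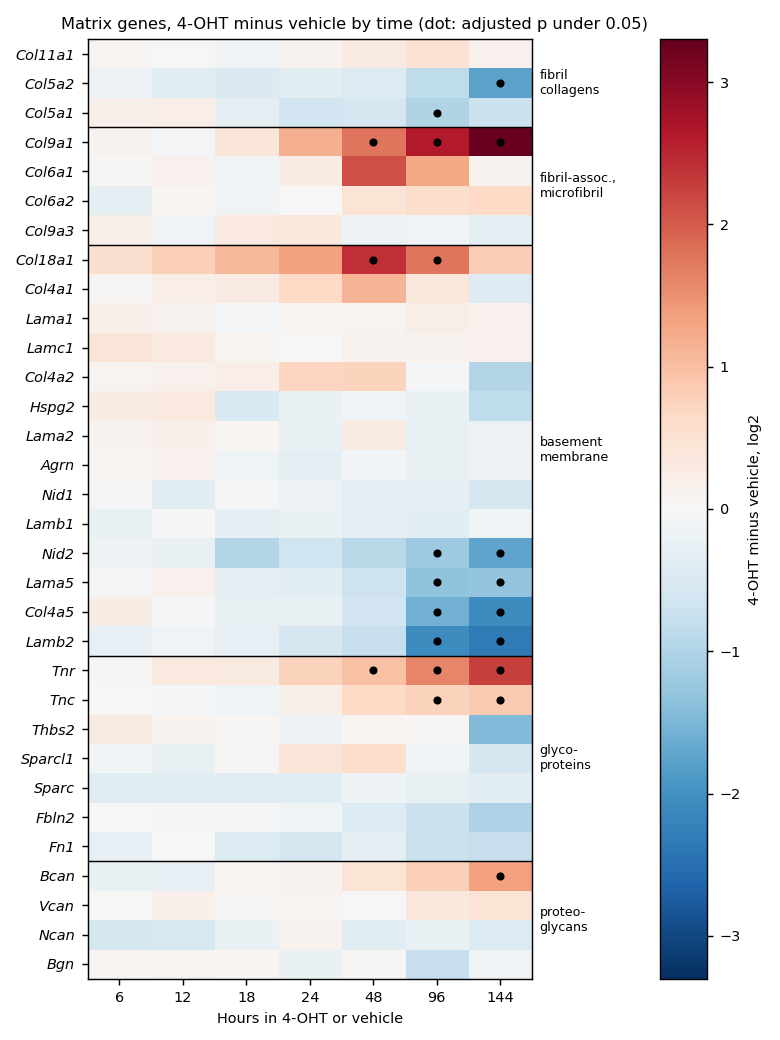
Differences in log2 level between 4-OHT and vehicle arrays for the 32 matrix genes, in rows by role and ordered by the difference at 96 h, at the 7 times in columns; red is higher and blue lower in 4-OHT cells, and a black dot marks an adjusted p under 0.05. Dots begin at 48 h, and at 96 h they stand on 4 red and 5 blue cells.

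The 3 genes called at 48 h were called already at 24 h when the replicate letter was added as a block. At 18 to 96 h the deviations from the group means of same-letter arrays correlated at 0.367 to 0.783. Replicate C matched its own letter best at each of these times, but B matched A best at 18 and 24 h and A and B each matched the other best at 48 h, so up to 48 h the letters set C, which has an array number range of its own, apart from A and B more than A from B. With the block the calls were 1 gene at 18 h (Nid2, lower), 3 at 24 h (Col18a1, Col9a1 and Tnr, all higher), 10 at 48 h (6 higher, 4 lower) and 16 at 96 h (7 higher, 9 lower). The share of all probes called with the block was 0.639% at 18 h (0.313% lower), 1.5% at 24 h (0.883% higher), 3.5% at 48 h (1.76% higher, 1.74% lower) and 11.7% at 96 h (5.37% higher, 6.32% lower). Genes called at 48 h only with the block were Col4a1, Col6a1 and Tnc, which were higher, and Col4a5, Lama5, Lamb2 and Nid2, which were lower. At 96 h the block added Bcan, Col6a1 and Col11a1, which were higher, and Col5a2, Fbln2, Fn1 and Bgn, which were lower. Col11a1 was detected on 4 arrays of 4-OHT and 1 of vehicle, so it passed the detection limit through the agent in which it is high and its gain supports nothing here.

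**Figure D2:**
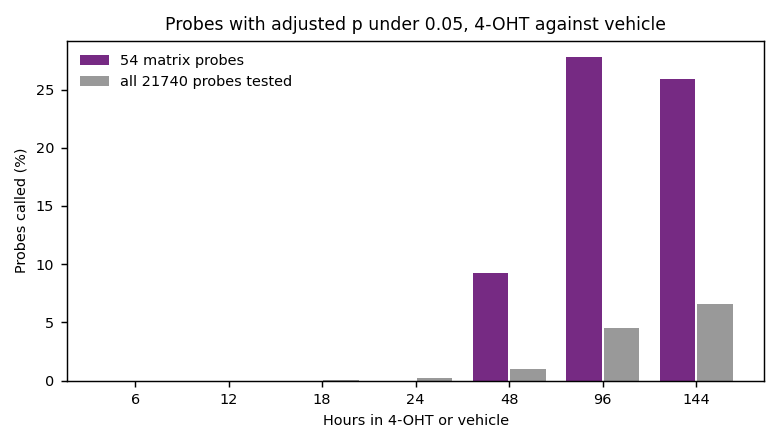
Percent of probes with adjusted p under 0.05 between 4-OHT and vehicle arrays at each time, for the 54 matrix probes (purple) and all 21740 probes tested (grey), without the replicate block. The matrix probes reach 27.8% at 96 h, where all probes stand at 4.5%. The members were chosen with earlier results of these data known, and several called probes share a gene.

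Among the fibril-associated and microfibril collagens, Col9a1 rose at 48, 96 and 144 h and was the member with the largest difference at 96 and 144 h. Col9a1 encodes the alpha 1 chain of type IX collagen, which sits on the surface of type II collagen fibrils in cartilage. At 24 h its level was 5.95, 5.91 and 5.66 on the 4-OHT arrays, against 4.79, 4.78 and 4.43 on the vehicle arrays, where replicate C was not detected. All 4-OHT arrays lay above all vehicle arrays at that time, with an adjusted p of 0.086 without the block and 8.36e-05 with it. At 48 h Col9a1 stood at 7.03, 7.13 and 6.19 in 4-OHT cells and at 5.23, 5.35 and 4.51 in vehicle cells, a difference of 1.76 (SE 0.29, 3.38-fold, adjusted p = 5.33e-04). At 96 h it stood at 7.82, 8.15 and 6.51 in 4-OHT cells and at 5.05, 5.34 and 4.26 in vehicle cells. Replicate C was the lowest of each agent at both times, and in vehicle cells it was not detected, so the fold at these times rests on 2 measured vehicle arrays of 3. The groups did not overlap. The mean at 96 h was 7.49 ± 0.87 in 4-OHT cells and 4.88 ± 0.56 in vehicle cells (SD, n = 3 each), 6.10-fold higher (difference 2.61, SE 0.29, adjusted p = 2.23e-07). At 144 h Col9a1 was 7.90 and 7.67 in 4-OHT cells against 4.60 and 4.38 in vehicle cells, where neither array detected it, so the difference is a bound of at least 8.77-fold (adjusted p = 1.02e-07). A bound sets the vehicle arrays at the lowest level of any detected probe.

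Col6a1, a chain of the microfibril-forming type VI collagen and the highest-level member of its role, was not called by its representative probe at any time without the block. At 48 h this probe was 8.14, 8.08 and 7.52 in 4-OHT cells and 5.53, 5.07 and 6.73 in vehicle cells, without overlap between the agents (difference 2.14, SE 0.55, adjusted p = 0.0515). A second Col6a1 probe gave 1.78 and passed narrowly (adjusted p = 0.0496). At 18 h its replicates had stood at 6.04, 6.02 and 8.07 in 4-OHT cells and at 5.96, 6.06 and 8.47 in vehicle cells, so replicate C was the high array of each agent. At 96 h the levels were 9.75, 9.44 and 9.17 in 4-OHT cells against 8.09, 8.02 and 8.39 in vehicle cells (adjusted p = 0.259, and 0.00299 with the block), and at 144 h they overlapped, at 10.60 and 9.42 in 4-OHT cells against 10.09 and 9.67 in vehicle cells. Col6a2, the partner chain, differed by 0.59 at 96 h, and Col9a3, another chain of type IX collagen, by -0.12; neither was called at any time.

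The basement membrane genes did not move as one. Of 14 tested, Col18a1 rose and Lamb2, Col4a5, Lama5 and Nid2 fell at 96 h, and 9 were not called; the median difference over the 14 was -0.24, against 0.01 over all probes. At 144 h the same 4 genes fell, none rose and the median was -0.51.

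Col18a1 encodes type XVIII collagen, a heparan sulfate proteoglycan of basement membranes whose C-terminal fragment is endostatin. Its difference was largest at 48 h, where the 4-OHT arrays lay close together at 10.89, 10.87 and 10.88 and the vehicle arrays stood at 8.08, 8.13 and 9.19. The agents did not overlap, and the level was 5.33-fold higher in 4-OHT cells (difference 2.42, SE 0.34, adjusted p = 4.46e-05). At 96 h the levels were 10.54, 10.48 and 10.97 in 4-OHT cells and 8.64, 8.88 and 9.16 in vehicle cells, 3.41-fold higher (difference 1.77, SE 0.34, adjusted p = 9.58e-04). A second Col18a1 probe gave 2.25 at 48 h and 1.56 at 96 h, both called. At 144 h the values were 9.74 and 10.92 in 4-OHT cells against 8.92 and 10.12 in vehicle cells; they overlapped, and the difference of 0.81 was not called (adjusted p = 0.341). Early on, the same probe separated replicates A and B but not C: at 18 h it read 10.11, 10.45 and 9.67 in 4-OHT cells against 8.58, 8.54 and 9.83 in vehicle cells (adjusted p = 0.647).

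Lamb2, the laminin beta 2 chain, had the largest negative difference of the 32 genes at 96 and 144 h. Over time it was called higher at 96 than at 18 h in vehicle cells and not called in 4-OHT cells, as given below. At 96 h its levels were 5.61, 5.44 and 6.02 in 4-OHT cells against 7.84, 7.69 and 7.74 in vehicle cells. No 4-OHT array came near the vehicle arrays, and the mean was 5.69 ± 0.29 against 7.76 ± 0.08 (SD, n = 3 each), 4.18-fold lower (difference -2.06, SE 0.40, adjusted p = 8.53e-04). At 144 h Lamb2 was 5.92 and 6.25 in 4-OHT cells against 8.33 and 8.53 in vehicle cells (difference -2.35, SE 0.49, adjusted p = 0.00161). At 48 h the levels had been 5.28, 5.07 and 6.84 against 6.10, 5.81 and 7.59, in the same order of agents within each replicate but overlapping between them (difference -0.77, adjusted p = 0.859, and 0.0116 with the block).

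Lama5, the laminin alpha 5 chain, was 6.74, 6.67 and 6.68 in 4-OHT cells and 8.01, 7.99 and 8.07 in vehicle cells at 96 h. The arrays of each agent lay close together and far from those of the other, and the level was 2.51-fold lower in 4-OHT cells (difference -1.33, SE 0.25, adjusted p = 5.02e-04). At 144 h it was 6.47 and 7.51 in 4-OHT cells against 7.75 and 8.86 in vehicle cells, with replicate C the higher of each agent (difference -1.31, adjusted p = 0.00444). The other laminin chains tested were not called at any time: at 96 h Lamc1 differed by 0.11, Lamb1 by -0.35, Lama1 by 0.21 and Lama2 by -0.24. Lama1 and Lama2 lay near background, detected on 9 and 17 of the 40 arrays, which limits what change could be measured in them. For Lamc1, the gamma chain that most laminin trimers share, the 95% interval at 96 h ran from -0.40 to 0.63, and for Lamb1 from -0.88 to 0.17.

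Col4a5 encodes a type IV collagen chain of specialised basement membranes. It was 7.25, 7.56 and 8.42 in 4-OHT cells and 9.28, 9.40 and 9.33 in vehicle cells at 96 h, with replicate C the highest of the 4-OHT arrays but below every vehicle array (difference -1.59, SE 0.45, 3.01-fold lower, adjusted p = 0.0324). Its second probe differed by -1.46 at 96 h (adjusted p = 0.124) and both probes were called at 144 h, where the representative one was 7.65 and 8.62 in 4-OHT cells against 10.07 and 10.33 in vehicle cells (difference -2.07, adjusted p = 0.0164). Col4a1 and Col4a2, the chains of the common type IV network, were not called: Col4a1 differed by 1.13 at 48 h, 0.38 at 96 h and -0.44 at 144 h, and Col4a2 by 0.74, -0.05 and -0.96.

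Nid2, nidogen 2, which links laminin to type IV collagen, was 4.95, 5.07 and 5.14 in 4-OHT cells against 6.33, 6.38 and 6.01 in vehicle cells at 96 h, without overlap (difference -1.19, SE 0.33, 2.28-fold lower, adjusted p = 0.0272). At 144 h it was 4.86 and 4.84 against 6.20 and 6.999 (difference -1.75, 3.36-fold lower, adjusted p = 0.00471). It was also the only member called at 18 h with the block, where its levels were 5.51, 5.07 and 6.23 in 4-OHT cells against 5.93, 6.17 and 7.60 in vehicle cells (difference -0.96, adjusted p = 0.0145 with the block and 0.85 without). Nid1, near background and detected on 14 of the 40 arrays, differed by -0.32 at 96 h and was not called.

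Agrn, the highest-level basement membrane member, was 11.93, 11.74 and 10.98 in 4-OHT cells and 12.01, 12.38 and 11.001 in vehicle cells at 96 h. The agents overlapped and replicate C was the lowest of each (difference -0.25, 95% interval -0.74 to 0.24, adjusted p = 0.843). Perlecan (Hspg2) differed by -0.22 at 96 h and by -0.84 at 144 h and was not called.

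**Figure D3:**
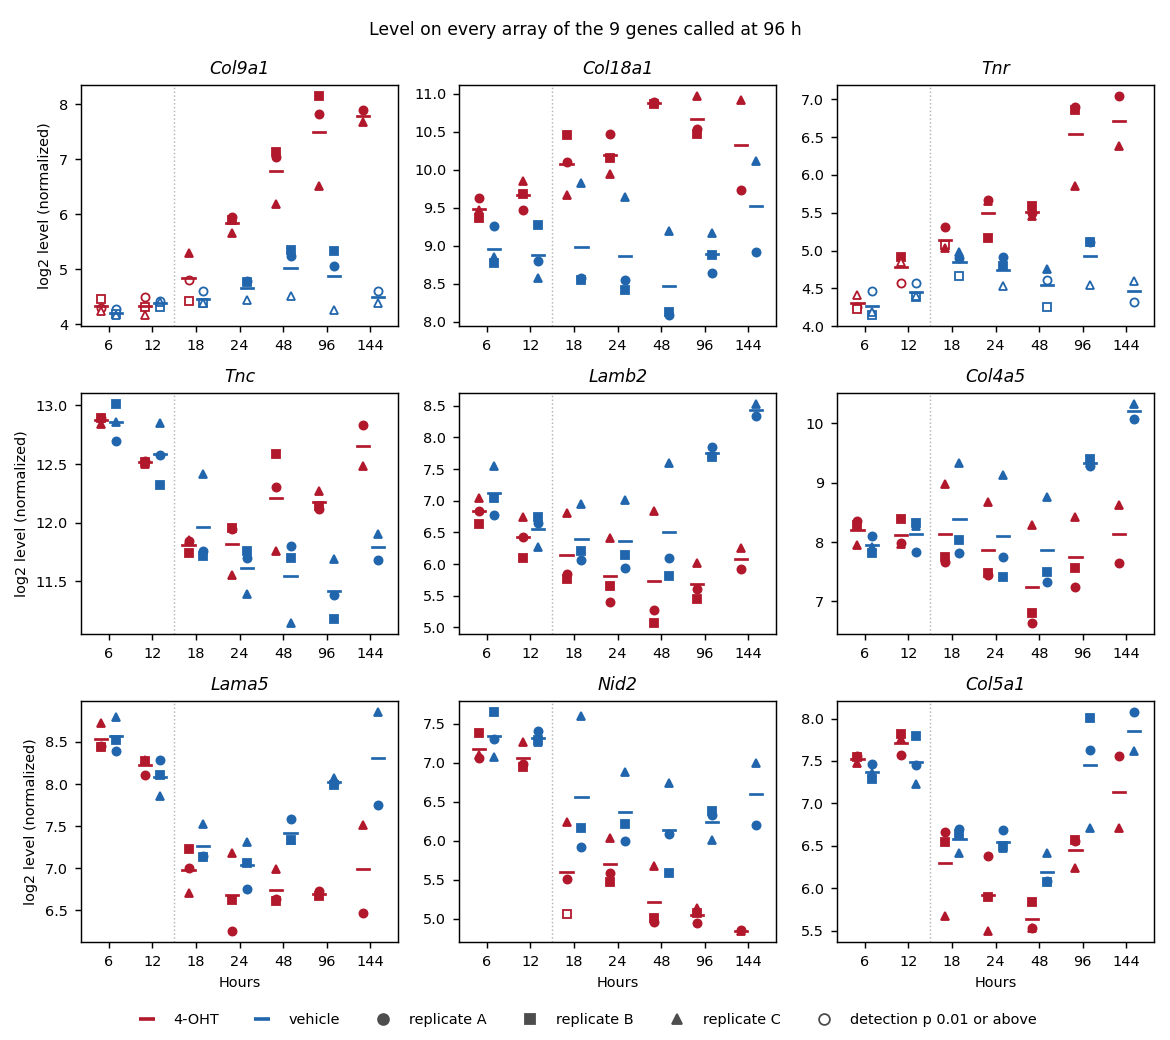
Normalized log2 level on every array for the 9 genes called at 96 h, by hours; red is 4-OHT and blue vehicle, circles, squares and triangles are replicates A, B and C, short lines are group means, open symbols have a detection p of 0.01 or above, and the dotted line sets apart 6 and 12 h, whose arrays have a number range of their own. At 96 h the agents do not overlap in any of the 9 genes, and Lama5 lies between 6.67 and 6.74 in 4-OHT cells against 7.99 to 8.07 in vehicle cells.

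The fibril collagens that could be tested were the type V chains Col5a1 and Col5a2, which help to start fibrils, and Col11a1, which sat near background. Col5a1 was 6.56, 6.57 and 6.24 in 4-OHT cells and 7.63, 8.01 and 6.71 in vehicle cells at 96 h; vehicle replicate C stood closest to the 4-OHT arrays, but the agents did not overlap (difference -0.998, SE 0.27, 1.997-fold lower, adjusted p = 0.021). At 144 h Col5a1 was not called (difference -0.71, adjusted p = 0.247). Col5a2, the higher-level of the type V chains, was 6.51, 6.71 and 6.30 in 4-OHT cells against 7.60, 7.70 and 6.74 in vehicle cells at 96 h and was not called (difference -0.84, adjusted p = 0.0616, and 0.00602 with the block). At 144 h it was 6.17 and 6.15 in 4-OHT cells against 8.08 and 7.75 in vehicle cells, clearly apart and called by both of its probes (difference -1.76, SE 0.32, 3.38-fold lower, adjusted p = 3.84e-04). Col1a1, Col1a2 and Col3a1, the main fibril collagens of connective tissue, did not pass detection.

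Both tenascins rose. Tnr, tenascin-R, a matrix glycoprotein of the central nervous system made by oligodendrocyte lineage cells and some neurons, was 5.50, 5.59 and 5.46 in 4-OHT cells and 4.62, 4.25 and 4.76 in vehicle cells at 48 h (difference 0.97, SE 0.21, 1.96-fold, adjusted p = 0.0117). At 96 h it was 6.89, 6.86 and 5.86 in 4-OHT cells and 5.12, 5.11 and 4.54 in vehicle cells, with replicate C the lowest of each agent and no overlap. The vehicle level was detected on 1 of 3 arrays at 48 h and on 2 of 3 at 96 h, which limits both folds. The mean at 96 h was 6.54 ± 0.59 in 4-OHT cells against 4.92 ± 0.33 in vehicle cells (SD, n = 3 each), 3.06-fold higher (difference 1.61, SE 0.21, adjusted p = 4.04e-06). At 144 h Tnr was 7.04 and 6.39 in 4-OHT cells against 4.33 and 4.59 in vehicle cells, where neither array detected it, a bound of at least 4.17-fold (adjusted p = 3.28e-07).

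Tnc, tenascin-C, is a hexameric glycoprotein of the embryonic germinal zones and of radial glia. It was 12.12, 12.14 and 12.27 in 4-OHT cells and 11.38, 11.18 and 11.69 in vehicle cells at 96 h, without overlap (difference 0.76, SE 0.19, 1.69-fold, adjusted p = 0.0114). At 144 h this probe was 12.83 and 12.48 against 11.68 and 11.90 (difference 0.86, adjusted p = 0.0163), a call lost with median scaling (0.89). No other Tnc probe was called at 144 h. The 7 tested Tnc probes then differed by between 0.09 and 1.15 in replicate A and between 0.43 and 1.21 in replicate C. Of its 7 tested probes 5 were called higher at 96 h, with differences between 0.76 and 1.08, and the 2 dimmest were not called, with differences of 0.69 and 0.70. The remaining glycoproteins were not called at any time between the agents: at 96 h Fbln2 differed by -0.72, Fn1 by -0.75, Sparc by -0.25, Sparcl1 by -0.08 and Thbs2 by 0.05. Fibulin-2 (Fbln2) binds laminin, nidogen and lecticans. At 144 h it differed by -1.01 (adjusted p = 0.178), with -1.62 in replicate A and -0.39 in replicate C. Thbs2, thrombospondin 2, differed by -1.46 at 144 h (adjusted p = 0.0787) and was detected on 20 of the 40 arrays.

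**Figure D4:**
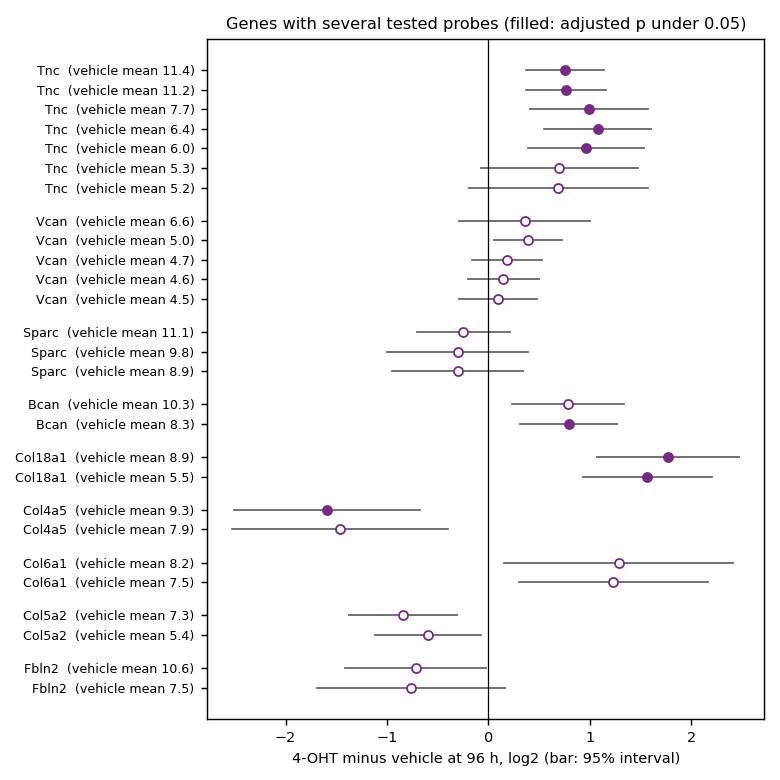
Difference in log2 level between 4-OHT and vehicle arrays at 96 h for each tested probe of 9 matrix genes with several tested probes, with the 95% interval; the mean log2 level of the vehicle arrays stands beside each gene name, and filled points have an adjusted p under 0.05. All 7 Tnc probes lie above 0 and 5 are filled, while the 3 Sparc probes lie below 0 and none is filled.

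Among the proteoglycans, Bcan (brevican), a lectican found almost only in the nervous system, rose at 144 h. It was 11.46 and 11.65 in 4-OHT cells against 9.72 and 10.68 in vehicle cells (difference 1.35, SE 0.33, 2.55-fold, adjusted p = 0.00834). With median scaling this probe was not called at 144 h (adjusted p = 0.37). At 96 h the same probe was 11.30, 11.31 and 10.72 in 4-OHT cells and 10.40, 10.46 and 10.10 in vehicle cells, apart but not called (difference 0.79, adjusted p = 0.102), while a second probe with the same difference of 0.79 and less spread passed narrowly (adjusted p = 0.0475) and lost its call without 5 of the 6 arrays (up to 0.233) and with median scaling (0.549). Ncan, neurocan, differed by -0.24 at 96 h and by -0.45 at 144 h and was not called. Vcan, versican, had 5 tested probes with differences between 0.10 and 0.39 at 96 h, none called; at 144 h 1 probe that neither vehicle array detected passed narrowly (adjusted p = 0.0481, a bound of at least 1.37-fold). That probe was detected on 1 of the 2 4-OHT arrays, differed by 1.07 in replicate A and 0.29 in replicate C, and lost its call without 3 of the 4 arrays (up to 0.865). Bgn, biglycan, was detected on 5 arrays only, which were 4-OHT B and vehicle A and B at 96 h and replicate A of each agent at 144 h. At 96 h it was 4.86, 4.81 and 4.28 in 4-OHT cells and 5.93, 5.85 and 4.45 in vehicle cells (difference -0.76, adjusted p = 0.243, and 0.00156 with the block).

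Leaving out any single array kept the calls of Col9a1, Col18a1, Tnr, Lamb2 and Lama5 at 96 h. The others called then lost theirs: Tnc without vehicle B (adjusted p = 0.1), Nid2 without replicate A or B of either agent (up to 0.113), Col4a5 without any array but 4-OHT C (up to 0.202) and Col5a1 without any but vehicle C (up to 0.227). At 48 h Tnr lost its call without 4-OHT A, 4-OHT B or vehicle B (up to 0.144). At 144 h Col9a1, Tnr, Lamb2 and Col5a2 kept theirs, and the highest adjusted p was 0.0907 for Nid2 without vehicle C, 0.199 for Bcan without vehicle A or 4-OHT C, 0.199 for Tnc without replicate A of either agent, and 0.223 for Col4a5 and 0.226 for Lama5 without 4-OHT A or vehicle C. With arrays scaled to their median in place of quantile normalization, 5 member probes stayed called at 96 h, those of Col9a1, Col18a1, Tnr and Lamb2. Fitted on the arrays of 144 h alone, no member was called at that time (lowest adjusted p 0.0785, Col9a1). The agents did not overlap in any of the 9 genes called at 96 h, nor in 19.1% of all probes. These 9 were picked by their call on the same arrays, so their lack of overlap adds no support. With 2 arrays per agent at 144 h, lack of overlap says less still. Within replicates A and B and within replicate C, Col9a1 differed by 2.79 and 2.24, Lamb2 by -2.24 and -1.72, and Col5a1 by -1.26 and -0.48.

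Changes over time within each agent share the 96 h arrays with the comparison between agents and are not separate evidence. A call in 1 agent and none in the other does not show that the changes differ. In 4-OHT cells 6 matrix genes were higher at 96 h than at 18 h and none lower, against 10.3% of all probes called, 5.76% higher and 4.52% lower. These were Col6a1 (9.45 ± 0.29 against 6.71 ± 1.18), Col9a1 (7.49 ± 0.87 against 4.84 ± 0.44), Tnr, Sparc, Col6a2 and Bcan, with differences of 2.74, 2.65, 1.40, 1.34, 1.16 and 0.89. Col6a1 was also higher at 96 h in vehicle cells, by 1.34, but was not called there. At 18 h Col9a1 and Col6a2 were detected on 1 of the 3 4-OHT arrays each. In vehicle cells 4 were higher and none lower, against 6.09% of all probes called, 3.72% higher and 2.36% lower. These were Lamb2 by 1.35 (7.76 ± 0.08 against 6.40 ± 0.48, adjusted p = 0.0362), Sparc by 1.20, Bgn by 1.08 and Col5a1 by 0.87. Bgn was detected on no array before 96 h, so it passed through late arrays, had to be higher there and supports nothing here.

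Sparc (osteonectin), a collagen-binding glycoprotein, was thus higher at 96 h than at 18 h in each agent, by all 3 of its probes, and was not called between the agents at any time. Lamb2 differed between 96 and 18 h by -0.45 in 4-OHT cells, where it was not called. For Lama5 the differences were -0.29 and 0.76 and for Col4a5 -0.39 and 0.94, in 4-OHT and vehicle cells, none called. Nid2 differed by -0.55 in 4-OHT cells and by -0.32 in vehicle cells. In vehicle cells 3 dimmer Tnc probes were lower at 96 h, by -0.91 to -0.99, and the representative probe differed by -0.54 (adjusted p = 0.076). Without some single arrays the calls of Lamb2, Bgn and Col5a1 in vehicle cells (adjusted p up to 0.157, 0.258 and 0.303) and of Col6a2 and Bcan in 4-OHT cells (up to 0.0922 and 0.173) were lost: for Lamb2 and Col6a2 replicates A and B of either time, and for Bgn, Col5a1 and Bcan also replicate C of 18 h.

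**Figure D5:**
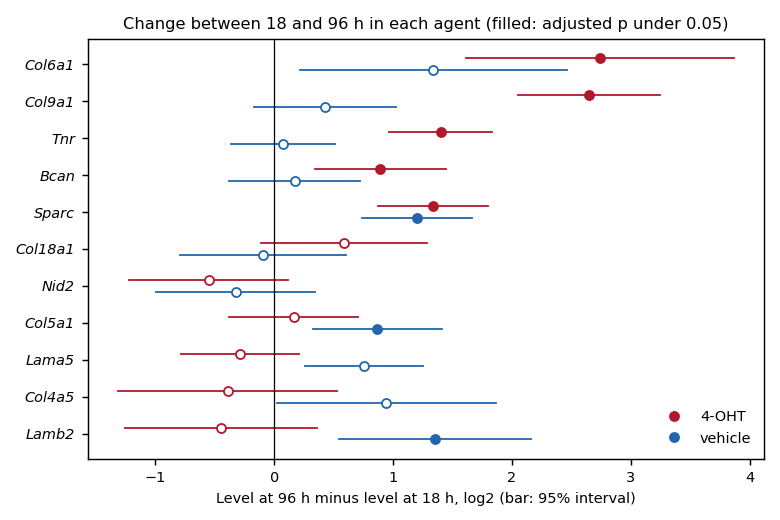
Level at 96 h minus level at 18 h in log2, with the 95% interval, for 11 matrix genes; red is 4-OHT, blue is vehicle, and filled points have an adjusted p under 0.05. Col6a1, Col9a1, Tnr and Bcan are filled in 4-OHT cells only, Lamb2 and Col5a1 in vehicle cells only, and Sparc in each.

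The growth of the 4-OHT effect was tested as the mean effect at 96 and 144 h minus the mean effect at 18 and 24 h. Of the 32 genes 5 were called, against 2.92% of all probes, 1.82% upward and 1.1% downward. Col9a1 by 2.17 (SE 0.31, adjusted p = 4.25e-05), Tnr by 1.42 (SE 0.23, 1.94e-04) and Tnc by 0.78 (SE 0.20, 0.0213) moved up, and Lamb2 by -1.80 (SE 0.42, 0.0117) and Lama5 by -0.998 (SE 0.26, 0.0256) moved down. Only the representative Tnc probe was called. Col18a1, with its largest effect at 48 h, was not called (0.08, 95% interval -0.66 to 0.82, adjusted p = 0.993). Col4a5 moved by -1.59 but was not called (adjusted p = 0.0671). Neither were Col6a1, Bcan and Col5a1, each called between 18 and 96 h in 1 agent only.

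Each list here is to be read beside the share of all probes called. That share was 4.5% at 96 h (2.41% higher, 2.1% lower) and 6.61% at 144 h (3.41% higher, 3.2% lower). Of 18 tested genes for enzymes and partners that modify, fold or cross-link collagen, 1 was called higher and 3 lower at 96 h. P3h2, a prolyl 3-hydroxylase active on type IV collagen, differed by -1.01 (adjusted p = 0.0064) and Crtap, the cartilage-associated protein of the prolyl 3-hydroxylation complex, by -0.71. Loxl1 (-0.63) was detected on 0 arrays of 4-OHT and 5 of vehicle, and Lox (0.44), a lysyl oxidase, on 3 of 4-OHT and 0 of vehicle. Each of these passed the limit through the agent in which it is high, so it had to differ and its call supports nothing. At 144 h P3h2 was again called lower. Of 49 further matrix genes tested 3 were higher and 3 lower at 96 h. Lgi3 differed by 1.81, Matn4 by 1.39, Ltbp1, which stores latent TGF-beta in the matrix, by -1.36, and Col9a2, another chain of type IX collagen, by 1.29 (adjusted p = 2.27e-05). Matn4, detected on 7 arrays of 4-OHT and 1 of vehicle, passed the limit through 4-OHT arrays, so its call supports nothing. Col9a2 was also called at 48 h (0.89) and 144 h (1.59), as Col9a1 was. At 144 h 6 were higher and 4 lower, with Crispld2 at -2.42, the type II collagen gene Col2a1 at 2.33 and Lgi3 at 2.20 among them. Of 17 matrix receptors outside the integrins 1 was called at 96 h and none at 144 h, near the shares of all probes. The receptor called was Sdc4, the heparan sulfate proteoglycan syndecan-4 (-1.59, adjusted p = 0.0068).

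Markers of differentiated cells moved over the same times. Of all probes 4.5% were called at 96 h (2.41% higher, 2.1% lower) and 6.61% at 144 h (3.41% higher, 3.2% lower). Of 13 oligodendrocyte lineage markers tested, 10 were higher in 4-OHT cells at 96 h and 9 at 144 h, and their summed level on the linear scale lay between 22230 and 35800 in 4-OHT cells and between 13820 and 16960 in vehicle cells at 96 h; Mog was detected on 0 arrays. Of the called ones Mag was detected on 6 arrays of 4-OHT and 0 of vehicle, and Enpp6 on 11 of 4-OHT and 1 of vehicle. Each passed the limit through the agent in which it is high, so its call supports nothing here. Of 9 astrocyte markers 3 were lower at 96 h, Gja1, Slc1a3 and Aldoc, and S100b was called higher. S100b was detected on 8 arrays of 4-OHT and 0 of vehicle, so it passed through 4-OHT arrays and its call supports nothing. The astrocyte list summed to 8007 to 8791 in 4-OHT cells and 15110 to 20570 in vehicle cells. Linear sums weigh the brightest gene of a list most, which is Slc1a3 here (mean log2 level 12.44 in 4-OHT and 13.65 in vehicle cells at 96 h). In the oligodendrocyte and neuronal lists it is Olig1 and Map2. Gjb6 was detected on 0 arrays. Neuronal markers summed to between 6565 and 7126 in 4-OHT cells and between 5823 and 6277 in vehicle cells, with 0 of 8 called at 96 h and 3 called higher at 144 h.

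Defining markers of the cell types that make much matrix elsewhere failed detection in part. The calls below stand beside 4.5% of all probes called at 96 h, 2.1% lower. Of 19 fibroblast and mural cell markers 11 did not pass detection, Pdgfrb, Rgs5, Tagln, Lum and Myh11 among them on 0 arrays. Foxc1 and Prrx1 were on 40 arrays, Thy1 on 38, Twist1 on 35 and Acta2 on 33. Of the 8 tested Foxc1 and Prrx1 fell at 96 h, and the sum over the list was 609 to 1201 in 4-OHT cells against 789 to 1743 in vehicle cells. Of 15 endothelial markers 8 were on 0 arrays, Pecam1, Cdh5, Kdr and Cldn5 among them, while Plvap was on 40 (mean log2 level 9.31), Egfl7 on 39 and Emcn on 25. Of the 5 tested Emcn fell at 96 h (-0.99, adjusted p = 0.0258), and the sum was 741 to 866 in 4-OHT cells against 909 to 1154 in vehicle cells. Plvap, the brightest of that list, weighs most in its sum. Of 11 microglial markers 10 did not pass. The part of these cell types in the matrix differences was not tested, and in RNA from whole cultures fewer cells of a type and less RNA per cell cannot be told apart.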

How the data were processed

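Per the labels' protocols, RNA was labelled as biotinylated cRNA and hybridised to Illumina MouseWG-6 BeadChips. The deposited table holds, per probe and array, a bead intensity that was neither background-subtracted nor normalized and a detection p-value. The authors' deposited log2 values were quantile normalized with lumi, per the labels' design text, after GenomeStudio, per the submitters' processing notes, and served as an alternative. In 21 of 45281 rows the cells stood a column out of place; they were left out and none carried a member symbol.

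Intensities were background-corrected and quantile normalized with neqc of limma 3.58.1 in R 4.3.3 (offset 16) and taken to log2. Probes with a detection p under 0.01 on at least 3 arrays were tested. One mean per agent and time was fitted over all 40 arrays (26 residual degrees of freedom), with a trended empirical Bayes step and two-sided Benjamini-Hochberg adjusted p-values over 21740 probes. The array count limits the precision. Symbols came from the platform annotation, of which 34807 probes matched RefSeq by Entrez ID.

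The members and the gene lists were chosen with earlier results of these data known. Values on each array are given for members called at a time, at most 10 at 96 h and 4 at each other time by absolute difference, and for the highest-level member of each role; at most 4 genes are named per further list. The replicate letters were taken as pairs at 18 to 96 h from the data alone, by the correlations of same-letter deviations (0.367 to 0.783), not at 6 and 12 h (-0.143 to 0.421), and 144 h has 2 pairs only. The fit was tested on simulated data. Alternatives were the authors' values, median scaling, no background correction, other detection filters, blocks for letter or array number range, subsets of arrays and leaving out each array.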

Additional observations from a re-analysis of the deposited data

Results flagged for a closer look

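In 5 members the effect of 4-OHT at 96 and 144 h differed from that at 18 and 24 h by the test of the difference itself (limma, adjusted over all probes). The later minus the earlier effect was 2.17 for Col9a1, 1.42 for Tnr and 0.78 for Tnc, and -1.80 for Lamb2 and -0.998 for Lama5. Leaving out each array in turn kept the calls of Col9a1, Tnr and Lamb2. Tnc lost its call without replicate A of either agent at 144 h (adjusted p up to 0.0965). Lama5 lost its call without 4-OHT B at 18 h, vehicle A or 4-OHT C at 24 h, or 4-OHT A or vehicle C at 144 h (up to 0.172). With median scaling neither Tnc nor Lama5 was called (adjusted p = 0.868 and 0.625).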

How the results depend on the processing

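Counts are of the 54 matrix probes called, 0 by the fit used above at each of 6 to 24 h, where the limma test gave an unadjusted p under 0.05 to 1, 1, 3 and 8 probes in order of time. In brackets is the share of all probes called by the same fit. With the replicate letter as a block the count was 1 probe at 18 h (0.639%), 4 at 24 h (1.5%), 14 probes at 48 h (3.5%), 26 at 96 h (11.7%), 21 for the late minus the early effect (9.45%) and 30 at any time (17.8%). At 144 h, where the letters form only 2 pairs, it was 24 (16.3%). The block ended no call of a member between the agents and could not be fitted for the changes between 18 and 96 h. With the array number range as a block the count was 3 at 24 h (0.649%), 8 at 48 h (1.62%), 17 for the late minus the early effect (5.2%), 20 for vehicle 96 against 18 h (11.1%) and 14 for 4-OHT 96 against 18 h (15.9%). Median scaling gave 5 at 96 h (2.08%), 3 for the late minus the early effect (1.35%), 1 for vehicle 96 against 18 h (1.38%) and 6 at any time (3.1%). It shifted all probes together, with a median of 0.34 (6 h), -0.11 (144 h) and 0.12 for 4-OHT 96 against 18 h. Without background correction 3 were called at 48 h (0.897%). Without the detection filter 1 was called at 12 h (0.00884%) and 3 for vehicle 96 against 18 h (1.81%). Only the arrays of the times compared gave 3 at 48 h (0.759%), 0 at 144 h (0%) and 2 for vehicle 96 against 18 h (1.86%). Only replicates A and B of 18 to 144 h, an alternative chosen after seeing the data, gave 6 at 18 h (3.09%), 9 probes at 24 h (5.41%), 22 at 48 h (8.33%), 34 probes at 96 h (20.3%), 33 at 144 h (22%), 30 for the late minus the early effect (17.9%), 31 for vehicle 96 against 18 h (44.4%) and 32 for 4-OHT 96 against 18 h (49.5%). There, and where an array of 144 h is left out, a lone array at 144 h is assumed to vary like the other groups. Leaving out each array gave 0 to 0 for 6, 12 and 18 h, between 0 and 2 probes at 24 h, between 3 and 8 at 48 h, between 6 and 15 at 96 h, between 8 and 13 at 144 h, 3 to 10 for the late minus the early effect, 2 to 17 for vehicle 96 against 18 h, 5 to 12 for 4-OHT 96 against 18 h and 11 to 18 at any time. Among called members 276 of 394 values without 1 array stayed called and 118 did not, with 0 reversed. Agrn, not called at 96 h, ranged between -0.646 and 0.0443 without 1 array and was positive without vehicle B or 4-OHT C. The cause of these shifts was not tested. Members near background, such as Bgn, Col11a1 and the vehicle levels of Col9a1 and Tnr at 144 h, limit how small a level could be measured.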
